A study of Mus musculus with 12 samples.

Results

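The 9 genes described here set, remove or read methylation of lysine 36 on histone H3 (H3K36), and were taken by symbol from the deposited tables, where 9 of 9 were found among 18908 genes. They are the methyltransferases Nsd1, Nsd2, Nsd3, Setd2 and Ash1l, the demethylases Kdm2a, Kdm2b and Kdm4a, and the reader Psip1. RNA was sequenced from cultured mouse bone marrow MSCs (mesenchymal stem cells, the marrow stroma that can form osteoblasts and adipocytes) grown in DMEM with 10% FBS. The groups were old MSCs labelled as treated with 1 µM melatonin for 24 h (replicates 1, 3 and 5), old vehicle MSCs (replicates 1, 2, 3, 5, 8 and 9) and young vehicle MSCs (replicates 2, 4 and 5). The 12 libraries came in 2 tables of 6. The age table sets old vehicle replicates 2, 8 and 9 against the young libraries, and the melatonin table sets the melatonin libraries against old vehicle replicates 1, 3 and 5. The labels give no strain, sex, age in weeks or number of animals, so p-values measure the spread between these libraries, which may be technical. The series title names melatonin, the formation of osteoblasts by senescent MSCs and chromatin remodelling by NSD2.

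Methylation of H3K36 marks transcribed chromatin. Nsd1, Nsd2, Nsd3 and Ash1l encode enzymes that place the lower methylation states, and Setd2 encodes the enzyme that travels with elongating RNA polymerase II and places the trimethyl state. Kdm2a and Kdm2b encode demethylases of the lower states that bind unmethylated CpG islands, Kdm4a encodes a demethylase of trimethylated H3K36 and H3K9, and Psip1 encodes LEDGF, which binds methylated H3K36 through its PWWP domain and tethers the menin and MLL complex to chromatin.

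Libraries held 20595378 to 21309663 estimated counts. All 12 stromal markers examined, such as Pdgfrb and Col1a1, were detected in each group, and their summed level was 12311 to 22440 CPM (counts scaled to a common library total) in old and 18111 to 53859 CPM in young vehicle libraries of the age table. All 20 macrophage markers were also detected, and their summed level was 1125 to 22342 CPM in old vehicle and 79.8 to 997 CPM in young vehicle libraries of that table. In the melatonin table it was 127 to 1038 CPM in melatonin-labelled and 1227 to 24348 CPM in old vehicle libraries. Averaged over the macrophage list, log2 CPM was 8.89 to 9.17 in old vehicle replicates 3, 5, 8 and 9 and at most 4.59 in the other 8 libraries. Each library of the melatonin table correlated best with 1 library of the age table, in 6 pairs with r = 0.980 to 0.994 over 14133 genes. Melatonin-labelled replicates 1, 3 and 5 were paired in this way with young replicates 2, 4 and 5, and old vehicle replicates 1, 3 and 5 with old vehicle replicates 2, 8 and 9. Pairs of libraries within a group and table had r = 0.871 to 0.945. The median squared difference of counts within a matched pair was 1.82 to 6.65 times that expected from counting error. Within a group of the same table it was 28.4 to 80.7 times. The counts do not show whether a pair is 1 sample or 2. Matches were sought only between the tables, so each comparison within a table uses 1 library of a pair, and only fits over 12 libraries use both. Whether libraries of different groups in the same table match was not examined in this way. Whether matched libraries share cells or animals, or whether labels were exchanged between melatonin-labelled and young libraries, cannot be told from the labels. Each value below is therefore for libraries as labelled, and the comparisons of both tables are not taken as independent of each other.

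Psip1 showed the widest separation of the 9 genes between libraries of the labelled groups, while Nsd2 varied mostly within them. On CPM scaled over all 12 libraries, Psip1 (gene identifier 101739) was at 92.6 to 108.5 CPM in the 3 melatonin-labelled, 30.3 to 54.7 CPM in the 6 old vehicle and 91.1 to 99.7 CPM in the 3 young libraries. Setd2, Ash1l and Kdm2a likewise had no overlap between the old vehicle libraries and the other 6. The share of all genes with such a split over 12 libraries was not counted, so these genes are not set apart by it. Nsd1 and Nsd3 overlapped slightly, and Nsd2, Kdm2b and Kdm4a overlapped broadly. In the edgeR quasi-likelihood test 0 of 9 genes passed an adjusted p under 0.05 in either comparison, with 0% of all genes called in each. At an unadjusted p under 0.05 there were 3 of 9 in each comparison, which were Psip1, Setd2 and Ash1l, beside 13.8% of all 13547 genes tested in the age table and 14.2% of 13471 in the melatonin table. The values below are therefore given without a call unless a test is named.

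**Figure D1:**
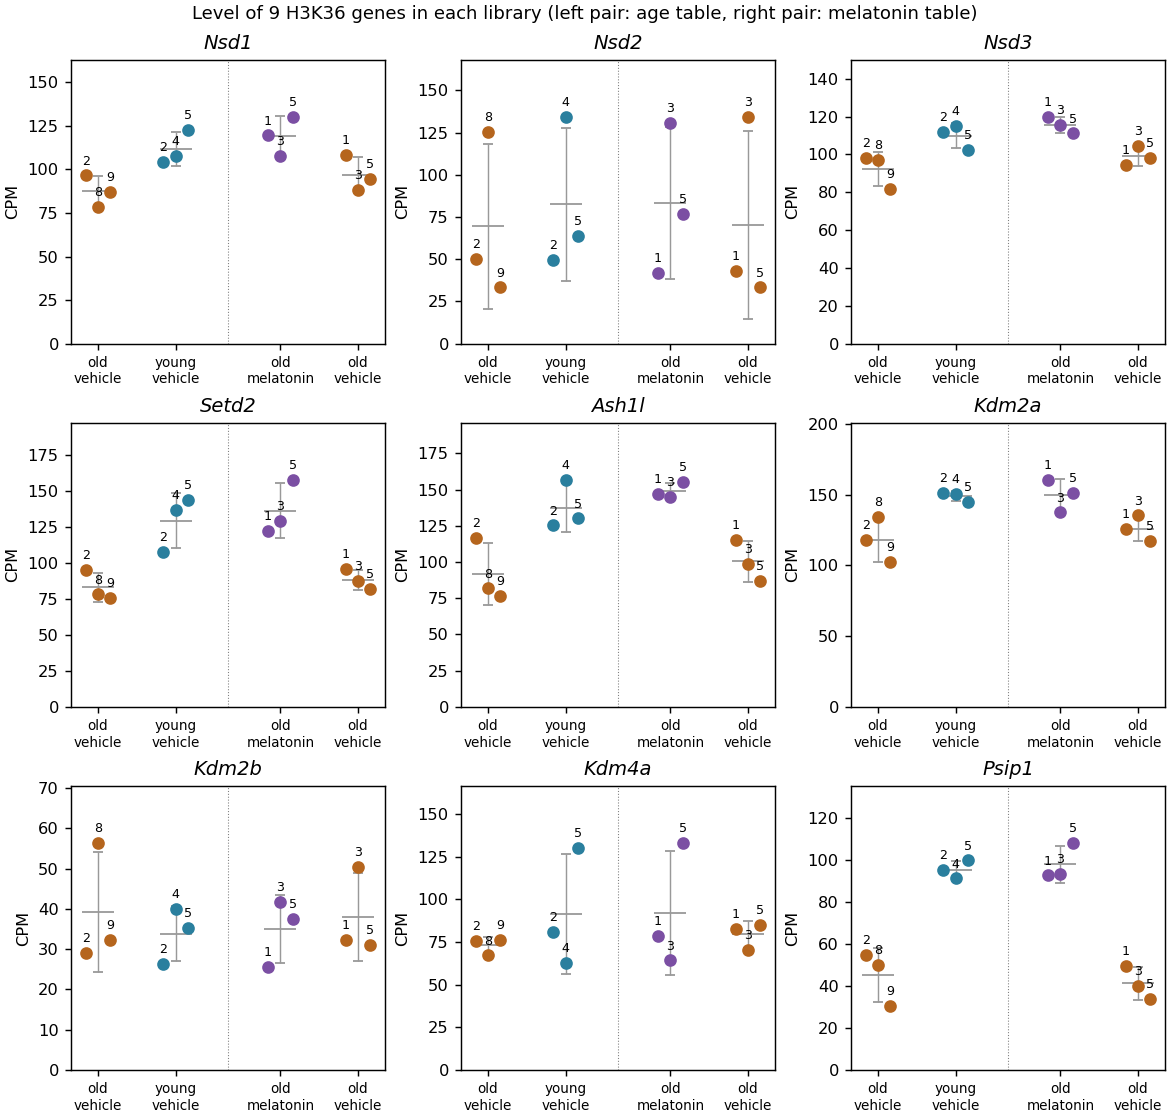
CPM of each gene in each library, with 1 panel per gene; points are libraries with their replicate number, horizontal bars are group means and whiskers are SD (n = 3). The left pair of columns is the age table and the right pair the melatonin table, each scaled within its table. Psip1 is at 54.8 CPM or less in every old vehicle library and at 91.2 CPM or more in the others, whereas Nsd2 spans 33.3 to 134 CPM among old vehicle libraries.

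The order of the levels was read from TPM, which is scaled for gene length. Psip1 averaged 69.1 ± 31.4 TPM over the 12 libraries (SD, n = 12), followed by Kdm2a with 49.7 ± 9.06, Nsd3 with 42.0 ± 6.14 and Kdm4a with 40.8 ± 10.9 TPM. Setd2 averaged 29.4 ± 8.86, Ash1l 29.0 ± 7.67, Nsd2 24.4 ± 14.2, Kdm2b 20.4 ± 4.90 and Nsd1 18.8 ± 3.77 TPM. Only the step from Kdm2a to Nsd3 held in 12 of 12 libraries. Kdm4a exceeded Setd2 in 10 of 12, and the other neighbours in this order exchanged places in at least 4 libraries. In the 6 old vehicle libraries Psip1, at 26.9 to 54.8 TPM, overlapped with Kdm2a at 35.4 to 46.9 TPM. In the other 6 libraries Psip1, at 91.9 to 101.7 TPM, lay above Kdm2a at 48.8 to 64.2 TPM.

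Of the enzymes that place the lower states, Nsd1 and Nsd3 had narrow ranges. Nsd1 (18193), an enzyme whose human counterpart is altered in Sotos syndrome, was at 96.5, 78.4 and 87.1 CPM in old vehicle replicates 2, 8 and 9 and at 105, 108 and 123 CPM in young replicates 2, 4 and 5. These groups did not overlap, and the log2 change, old minus young, was -0.35 ± 0.16 (SE, edgeR adjusted p = 0.385). Nsd3 (234135) was at 98.2, 97.0 and 81.7 CPM in old vehicle replicates 2, 8 and 9 and at 112, 115 and 103 CPM in young replicates 2, 4 and 5. Its log2 change was -0.25 ± 0.15 (edgeR adjusted p = 0.488), again with every old library below every young one. The melatonin table gave the same genes the other sign. Nsd1 averaged 119 ± 11.3 CPM in melatonin-labelled and 96.9 ± 10.2 CPM in old vehicle libraries, a log2 change of 0.30 ± 0.16, and the groups overlapped, since old vehicle replicate 1 at 108 CPM reached melatonin-labelled replicate 3. Nsd3 averaged 116 ± 4.37 CPM in melatonin-labelled and 99.0 ± 5.09 CPM in old vehicle libraries, a log2 change of 0.22 ± 0.14, and the groups did not overlap.

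Nsd2 (107823), the enzyme named in the series title, varied within each group over most of its range. It was at 49.9, 125 and 33.3 CPM in old vehicle replicates 2, 8 and 9 and at 49.5, 134 and 63.9 CPM in young replicates 2, 4 and 5. Each group held 1 high and 2 low libraries, and 94.4% of the variance of log2 CPM in the age table lay within groups. The log2 change was -0.25 ± 0.60 with a 95% interval of -1.70 to 1.20 (edgeR adjusted p = 0.874), so a change of more than 2-fold in either direction lay inside the interval. In the melatonin table Nsd2 was at 41.9, 131 and 76.8 CPM in melatonin-labelled replicates 1, 3 and 5 and at 42.9, 134 and 33.3 CPM in old vehicle replicates 1, 3 and 5. Replicates 1 and 3 had similar values in both groups and replicate 5 differed, but equal numbers were not taken as pairs. The log2 change was 0.25 ± 0.65 with a 95% interval of -1.34 to 1.83 (edgeR adjusted p = 0.877). It ran from -0.25 without melatonin-labelled replicate 3 to 1.16 without old vehicle replicate 3. With the replicate number as a block, the log2 change of Nsd2 was 0.37 ± 0.34 (edgeR adjusted p = 0.646).

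**Figure D2:**
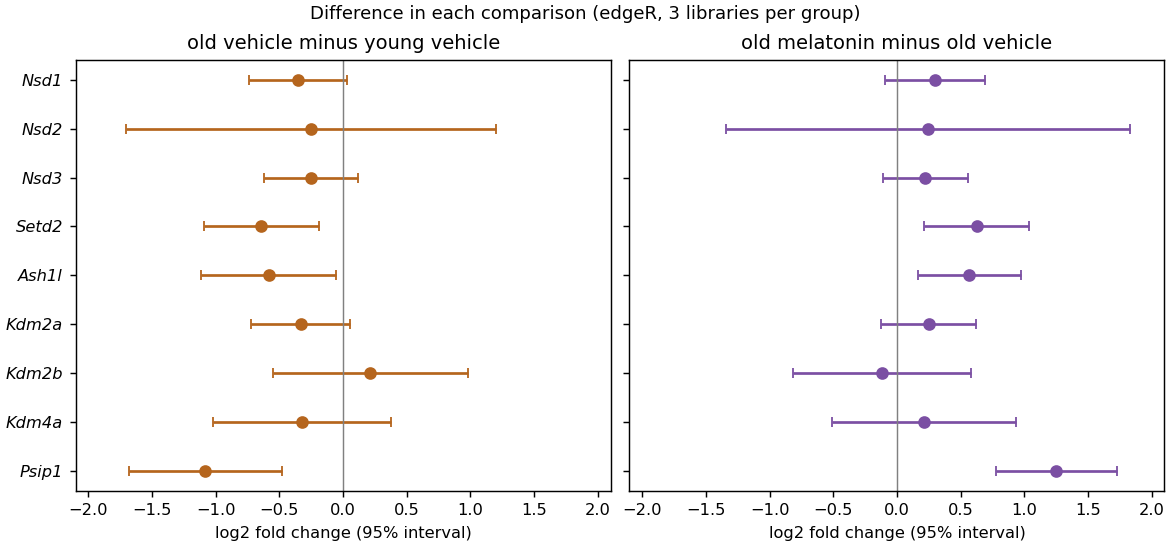
Log2 fold change of each gene (points) with its 95% interval (bars) from edgeR, 3 libraries per group, in the age comparison on the left and the melatonin comparison on the right. The interval of Nsd2 reaches from -1.70 to 1.20 in the age comparison, while that of Psip1 reaches from -1.68 to -0.48.

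Ash1l and Setd2 had the larger differences among the methyltransferases. Ash1l (192195), an enzyme of the Trithorax group, was at 116, 81.7 and 76.6 CPM in old vehicle replicates 2, 8 and 9 and at 125, 157 and 130.1 CPM in young replicates 2, 4 and 5. The groups were separated, but old replicate 2 lay close to the lowest young library, and the log2 change was -0.58 ± 0.22 (edgeR adjusted p = 0.333). Ash1l in the melatonin table was at 147, 145 and 155 CPM in melatonin-labelled replicates 1, 3 and 5 and at 115, 98.6 and 87.0 CPM in old vehicle replicates 1, 3 and 5, a log2 change of 0.57 ± 0.17 (edgeR adjusted p = 0.286). All melatonin-labelled libraries were above all old vehicle ones. DESeq2's Wald test called this difference (adjusted p = 0.0498), at a setting that called 6.64% of all genes.

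Setd2 (235626), which places the trimethyl state, was at 94.9, 78.1 and 75.9 CPM in old vehicle replicates 2, 8 and 9 and at 108, 137 and 144 CPM in young replicates 2, 4 and 5. No library of 1 group reached the other, and the log2 change was -0.64 ± 0.19 (edgeR adjusted p = 0.315). It was at 122, 129 and 158 CPM in melatonin-labelled replicates 1, 3 and 5 and at 95.7, 87.4 and 81.8 CPM in old vehicle replicates 1, 3 and 5, a log2 change of 0.63 ± 0.17 (edgeR adjusted p = 0.286). DESeq2 called the melatonin difference (adjusted p = 0.0259) and not the age difference (adjusted p = 0.0684). At this setting 6.64% of all genes were called for melatonin, 1.39% as higher, and 6.37% for age, 1.51% as lower. On the 12-library scale, libraries with similar macrophage transcripts were compared. Setd2 was at 122 CPM in melatonin-labelled replicate 1 against 96.3 CPM in old vehicle replicate 1. In the libraries matched to these, so not independently, it was at 94.8 CPM in old vehicle replicate 2 against 107 CPM in young replicate 2. Adjusted for the mean of the macrophage list, its log2 changes were -0.23 ± 0.26 for age and 0.41 ± 0.30 for melatonin.

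Promoters of 3 of the 9 genes, Setd2, Kdm2b and Kdm4a, were in the RefSeq table used here, which is of build GRCm38.p6 and not of the build in the submitters' notes. Those of Setd2 and Kdm4a are shown because these are a writer and an eraser of the same trimethyl mark, with r = 0.461 and 0.484 between their log2 CPM over the 6 libraries of the age and melatonin tables. Each window runs from 250 bases before to 50 bases after a transcript start, 5′ to 3′ on the gene's strand, with CpG dinucleotides in capitals. The Setd2 window is chr9:110532347-110532646 on the plus strand, and the Kdm4a window is chr4:118179994-118180293 on the minus strand.
Setd2: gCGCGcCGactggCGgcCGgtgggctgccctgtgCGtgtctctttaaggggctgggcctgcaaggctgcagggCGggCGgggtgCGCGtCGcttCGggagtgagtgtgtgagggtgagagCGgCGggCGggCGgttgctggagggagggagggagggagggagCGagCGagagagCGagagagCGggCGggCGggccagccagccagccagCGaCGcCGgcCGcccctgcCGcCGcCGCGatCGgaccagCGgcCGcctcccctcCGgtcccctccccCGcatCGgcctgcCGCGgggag
Kdm4a: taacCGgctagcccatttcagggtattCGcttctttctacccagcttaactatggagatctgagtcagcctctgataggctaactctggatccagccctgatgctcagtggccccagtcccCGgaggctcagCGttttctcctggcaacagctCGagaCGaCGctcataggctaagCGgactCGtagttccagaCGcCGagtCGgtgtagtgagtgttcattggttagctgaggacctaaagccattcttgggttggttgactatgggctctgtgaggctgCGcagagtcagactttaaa
The Setd2 window has 38 CpG dinucleotides and 77.3% G and C, and the Kdm4a window has 13 and 53.3%. The median over 32851 promoter windows is 7 CpG dinucleotides and 52.7% G and C. The GC box letters GGGCGG occur 7 times on either strand in the Setd2 window and 0 times in that of Kdm4a, and 35.7% of all windows hold them. The letters CCAAT occur 0 times for Setd2 and 1 time for Kdm4a (37.4% of all windows), and TATAAA 0 times in both (13.6% of all windows). These matches describe the letters only.

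The demethylase genes differed among themselves in sign and spread. Kdm2a (225876) was at 118, 134 and 102 CPM in old vehicle replicates 2, 8 and 9 and at 151, 151 and 145 CPM in young replicates 2, 4 and 5. The young libraries lay close together and above the old ones, and the log2 change was -0.33 ± 0.16 (edgeR adjusted p = 0.414). Kdm2a in the melatonin table averaged 149.6 ± 11.6 CPM in melatonin-labelled and 126 ± 9.09 CPM in old vehicle libraries, a log2 change of 0.25 ± 0.15. Those groups were separated only narrowly, with 137 CPM in melatonin-labelled replicate 3 and 135 CPM in old vehicle replicate 3.

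Kdm2b (30841), which also directs a variant Polycomb complex to CpG islands, was the 1 gene of the 9 with a higher mean in old than in young libraries. It was at 29.1, 56.4 and 32.3 CPM in old vehicle replicates 2, 8 and 9 and at 26.3, 39.9 and 35.3 CPM in young replicates 2, 4 and 5, so old replicate 8 alone set the direction. The log2 change was 0.21 ± 0.31 (edgeR adjusted p = 0.775) and turned to -0.14 without that library. In the melatonin table it was at 25.5, 41.8 and 37.4 CPM in melatonin-labelled replicates 1, 3 and 5 and at 32.2, 50.5 and 31.0 CPM in old vehicle replicates 1, 3 and 5, a log2 change of -0.12 ± 0.29. Replicate 3 was the highest library in both groups.

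Kdm4a (230674) was at 75.5, 67.1 and 76.4 CPM in old vehicle replicates 2, 8 and 9 and at 80.9, 62.5 and 130 CPM in young replicates 2, 4 and 5. A single young library carried the difference of the means, and the log2 change of -0.32 ± 0.29 (edgeR adjusted p = 0.637) became 0.0043 without it. Kdm4a in the melatonin table was at 78.6, 64.2 and 133 CPM in melatonin-labelled replicates 1, 3 and 5 and at 82.7, 70.6 and 85.2 CPM in old vehicle replicates 1, 3 and 5. There, too, 1 melatonin-labelled library stood above the rest, and the log2 change of 0.21 ± 0.30 became -0.12 without it.

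Psip1, the reader, was at 54.8, 49.95 and 30.4 CPM in old vehicle replicates 2, 8 and 9 and at 95.1, 91.2 and 99.8 CPM in young replicates 2, 4 and 5. Every young library lay far above the highest old one. The log2 change was -1.08 ± 0.25 with a 95% interval of -1.68 to -0.48 (edgeR adjusted p = 0.315), a fold of 0.472, and the gene ranked 111 by p-value among 13547. In the melatonin table Psip1 was at 92.6, 93.2 and 108 CPM in melatonin-labelled replicates 1, 3 and 5 and at 49.7, 40.1 and 33.6 CPM in old vehicle replicates 1, 3 and 5. The groups were again far apart, with a log2 change of 1.25 ± 0.20 and a 95% interval of 0.77 to 1.73 (edgeR adjusted p = 0.286), a fold of 2.38, ranking 18 among 13471. DESeq2 called both differences of Psip1 (adjusted p = 0.00968 for age and 3.55e-05 for melatonin). It called 6.37% of all genes for age, 1.51% as lower, and 6.64% for melatonin, 1.39% as higher. A 3-group fit over 12 libraries, which treats matched libraries as independent, also called both (edgeR adjusted p = 0.0237 and 0.0185), among 1.1% of all genes for age, 0.686% as lower, and 2.09% for melatonin, 1.19% as higher. Without old vehicle replicate 1 edgeR called the melatonin comparison (adjusted p = 0.0363), where it called 4.33% of all genes, 0.496% as higher.

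Macrophage transcripts moved with these groups, and in bulk RNA fewer cells of a type and less RNA per cell cannot be told apart. At macrophage list means of 4.33 and 4.58 log2 CPM, Psip1 was at 92.6 CPM in melatonin-labelled replicate 1 against 49.97 CPM in old vehicle replicate 1. The libraries matched to these, old vehicle replicate 2 and young replicate 2, had list means of 4.50 and 4.59. There Psip1 was at 54.7 and 94.95 CPM, which is not an independent contrast. Without the old vehicle libraries richest in macrophage transcripts, which leaves 1 old library whose spread is assumed to be like the others', the log2 changes were -0.80 ± 0.24 for age and 0.98 ± 0.27 for melatonin (edgeR adjusted p = 1.00 in both). Adjusted for the macrophage mean they were -0.80 ± 0.40 and 0.88 ± 0.30, and neither passed. For Ash1l the covariate left -0.073 ± 0.26 and 0.32 ± 0.27. For Nsd1 it left -0.14 ± 0.27 and 0.12 ± 0.28, for Nsd3 -0.16 ± 0.27 and 0.34 ± 0.25, and for Kdm2a -0.36 ± 0.30 and 0.34 ± 0.28. Nsd2 was then at -0.14 ± 1.31 and 0.61 ± 1.51, and Kdm4a at -0.25 ± 0.53 and 0.085 ± 0.56. The adjusted p of each of these edgeR values was 1.00. The summed level of 5 adipocyte markers, of which 4 averaged at least 1 CPM, also differed by group without overlap. It was 101 to 402 CPM in old vehicle and 41.2 to 71.5 CPM in young vehicle libraries of the age table. In the melatonin table it was 40.3 to 73.0 CPM in melatonin-labelled and 101 to 518 CPM in old vehicle libraries. The sum does not show which markers differed or in which cells, and their part in the differences was not tested.

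**Figure D3:**
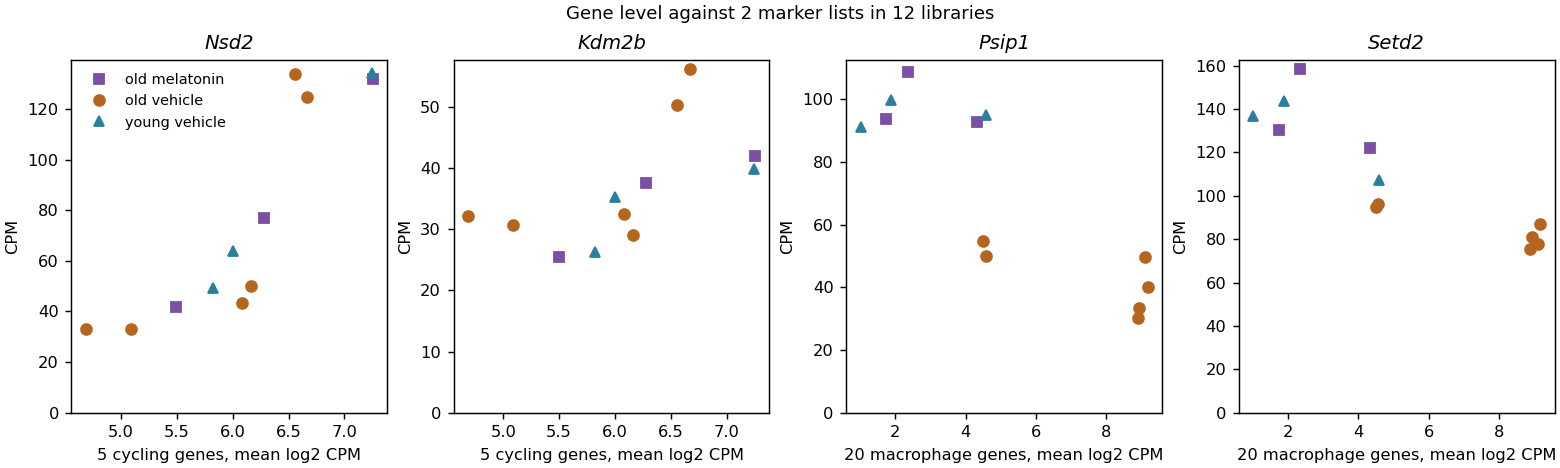
CPM of Nsd2 and Kdm2b against the mean log2 CPM of 5 genes of cycling cells, and of Psip1 and Setd2 against that of 20 macrophage genes, with 1 point per library for 12 libraries and a symbol per labelled group. Nsd2 is near 130 CPM in the 4 libraries with a cycling mean above 6.5, and Psip1 is below 55 CPM in all old vehicle libraries, at both low and high macrophage means. The old vehicle libraries at low macrophage means are replicates 1 and 2, which are matched to each other and may not be independent.

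Nsd2 varied with genes of cycling cells across libraries. The mean log2 CPM of Mki67, Top2a, Ccnb1, Mcm5 and Pcna was 6.55 and 6.67 in old vehicle replicates 3 and 8, 7.25 in melatonin-labelled replicate 3 and 7.24 in young replicate 4, the 4 libraries in which Nsd2 was at 125 to 134 CPM. It was 4.68 to 6.28 in the other 8 libraries, where Nsd2 was at 33.0 to 77.1 CPM. Pearson's r between log2 CPM of Nsd2 and this mean was 0.923 over the 6 libraries of the age table and 0.907 over the 6 of the melatonin table, which are matched to each other and share any difference in culture. For Kdm2b the same r was 0.519 and 0.766. It lay between -0.33 and 0.74 for the other 7 genes. The macrophage mean had r = -0.97 and -0.93 with Ash1l, -0.97 and -0.89 with Setd2, -0.91 and -0.85 with Nsd1, and -0.84 and -0.91 with Psip1. It had r = -0.77 and -0.59 with Nsd3, -0.65 and -0.58 with Kdm2a, -0.33 and -0.26 with Kdm4a, -0.27 and -0.20 with Nsd2, and 0.28 and 0.12 with Kdm2b. These are descriptions over few libraries.

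Setd2, Ash1l and Psip1 had pairwise r of 0.883 to 0.990 in both tables, and Nsd1 was close to them, with r of 0.806 to 0.938. Nsd3 and Kdm2a had r = 0.930 and 0.865 with each other, and also lay near Psip1, with r = 0.921 and 0.832 for Nsd3 and 0.931 and 0.844 for Kdm2a. In the age table both were closer to Psip1 than Nsd1 was. Nsd2 and Kdm2b were most alike to each other, with r = 0.780 in the age table and 0.895 in the melatonin table, and Kdm2b had negative r with Nsd1, Nsd3, Setd2, Ash1l, Kdm4a and Psip1 in both tables. Kdm4a was nearest to Nsd1, with r = 0.649 and 0.623.

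**Figure D4:**
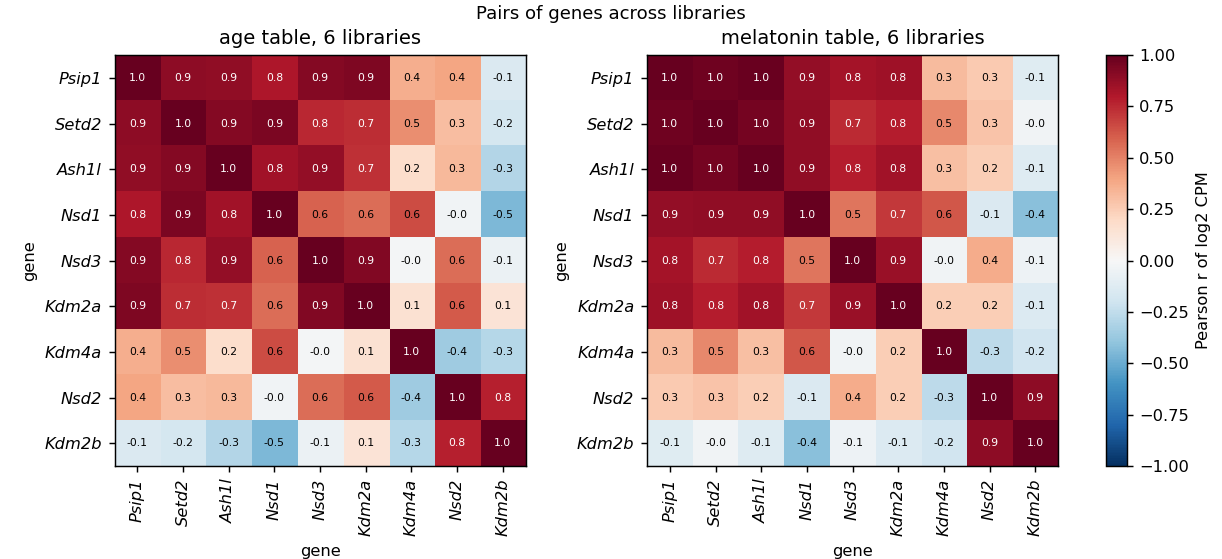
Pearson r of log2 CPM for each pair of the 9 genes over the 6 libraries of the age table (left) and of the melatonin table (right); red is positive and blue negative. Psip1, Setd2, Ash1l and Nsd1 form a block with r of 0.806 or more, and Nsd2 and Kdm2b stand together at 0.780 and 0.895.

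The genes most like each member were found among 9913 others with a mean of at least 10 CPM, by the smaller of its r values in the 2 tables, each over 6 libraries. For Nsd2 these were Cstf2 (0.968), which encodes a pre-mRNA cleavage factor, the RNA-binding protein gene Pum2 (0.964) and Smchd1 (0.960), a gene of X chromosome silencing. Setd2 was most like Wdr82 (0.989), a subunit of complexes that methylate H3K4, and Ash1l most like the channel kinase gene Trpm7 (0.987). The nearest to Psip1 was the sodium channel gene Scn3a (0.993), which had 6.31 to 534 counts. Kdm4a was most like Marcks (0.993), a substrate of protein kinase C, Kdm2a like the condensin gene Smc4 (0.956) and Kdm2b like Fam111a (0.955). Nsd1 was closest to Mios (0.978) and Nsd3 to Tent4a (0.935), so Nsd3 had the weakest nearest match of the 9. Each r is the highest of many, over libraries that match across the tables, so the smaller r is not an independent check.

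Libraries matched across the tables gave nearly the same levels for the 9 genes. The log2 ratio of a melatonin-labelled library to its matched young library lay between -0.24 and 0.27 for all 9 genes and 3 pairs. For old vehicle libraries matched to old vehicle libraries it lay between -0.32 and 0.27. In a fit over 12 libraries, the log2 change of melatonin-labelled minus young libraries was 0.046 ± 0.21 for Psip1 with a 95% interval of -0.42 to 0.51, 0.083 ± 0.16 for Setd2 with -0.26 to 0.42, and 0.019 ± 0.65 for Nsd2 with -1.42 to 1.45 (edgeR adjusted p = 1 for each). All 9 had slightly higher means in melatonin-labelled libraries, as had 50.4% of all genes. Of the 9 genes 0 were called, with 0% of 14133 genes called and 0.0566% at an unadjusted p under 0.05. With the table as a term, estimated from the old vehicle libraries, the log2 change was 0.17 ± 0.31 for Psip1, -0.0095 ± 0.23 for Setd2 and 0.0032 ± 0.97 for Nsd2, and 0 genes were called, with 4 at an unadjusted p under 0.05. Of the 9 genes 6 then had the other sign, so the small excess in melatonin-labelled libraries depended on leaving the table out.

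**Figure D5:**
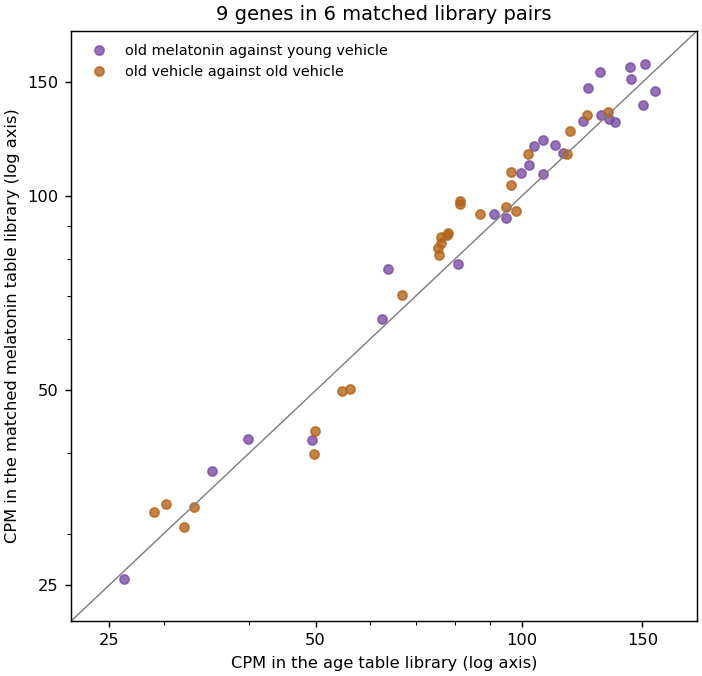
CPM of the 9 genes in each library of the melatonin table against the matched library of the age table, on log axes, with 1 point per gene and pair (9 genes and 6 pairs); the line marks equal levels. The points lie along the line, with log2 ratios between -0.32 and 0.27, for pairs of melatonin-labelled and young libraries as for pairs of old vehicle libraries.

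In the age comparison 8 of the 9 genes had lower means in old libraries, with a median log2 change of -0.33, against -0.025 over all 13547 genes, of which 52.3% were lower. For 6 of the 9 every old library was below every young one, as for 9.23% of all genes. In the melatonin comparison 8 of 9 had higher means in melatonin-labelled libraries, with a median of 0.25 against 0.020 over all 13471 genes, of which 51.7% were higher. For 5 of the 9 every melatonin-labelled library was above every old vehicle library, as for 9.09% of all genes. These shares describe genes chosen with earlier results known, in libraries that match across the tables, so the second count is not independent of the first.

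Related genes of the H3K36 system are given by lists. Over all genes tested, 52.3% were lower in old and 51.7% higher in melatonin-labelled libraries. Libraries match across the tables, so the counts of the 2 comparisons are not independent of each other. Of 8 other H3K36 enzyme genes tested out of 9, 6 were lower and 2 higher in old libraries (median -0.21), and 5 were higher and 3 lower in melatonin-labelled libraries (median 0.18), with 0 called in each. Setd3, whose product is best known as an actin histidine methyltransferase, averaged 137 ± 8.06 CPM in old vehicle and 106 ± 2.34 CPM in young vehicle libraries (log2 change 0.37 ± 0.14), and Setd5 averaged 115 ± 22.1 CPM in old vehicle and 168 ± 28.4 CPM in young vehicle libraries (-0.54 ± 0.22). Of 18 genes of H3K36 and PWWP domain readers, 15 were lower in old and 14 higher in melatonin-labelled libraries (median -0.15 and 0.16), with 0 called. Hdgf, a growth factor gene with a PWWP domain related to that of Psip1, had a log2 change of -0.43 ± 0.20 for age and 0.47 ± 0.21 for melatonin. Those of the MRG family gene Morf4l2 were -0.42 ± 0.21 and 0.41 ± 0.20, and those of Pwwp2b, with the opposite signs, 0.68 ± 0.36 and -0.80 ± 0.31. The DNA methyltransferase gene Dnmt3b was low throughout, averaging 1.37 ± 0.51 CPM in old vehicle and 2.62 ± 1.08 CPM in young vehicle libraries.

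Of 15 partner genes, 14 were lower in old and 12 higher in melatonin-labelled libraries (median -0.21 and 0.12), with 0 called. Kmt2a, which encodes the MLL methyltransferase that the Psip1 product tethers, averaged 87.5 ± 12.5 CPM in old vehicle and 127 ± 16.2 CPM in young vehicle libraries (log2 change -0.54 ± 0.18, edgeR adjusted p = 0.315). It averaged 138 ± 18.7 CPM in melatonin-labelled and 96.7 ± 13.2 CPM in old vehicle libraries (0.51 ± 0.18, edgeR adjusted p = 0.322), and neither pair of groups overlapped. Every old library was below every young one for 3 of the 15 partner genes, beside 9.23% of all genes. Every melatonin-labelled library was above every old vehicle one for 3 of the 15, beside 9.09% of all genes. The histone-binding gene Rbbp4 had -0.46 ± 0.20 and 0.45 ± 0.19, and Bcor, a subunit of the Kdm2b complex, -0.44 ± 0.21 and 0.33 ± 0.22. Genes of H3K27 methylation were mixed, with 5 of 8 lower in old and 3 of 8 higher in melatonin-labelled libraries, 0 called. The H3K27 demethylase gene Kdm6b had -0.83 ± 0.27 and 0.75 ± 0.27, and the methyltransferase gene Ezh2 -0.41 ± 0.50 and 0.47 ± 0.42. Eed, with the opposite signs, had 0.19 ± 0.19 and -0.26 ± 0.19. Of 6 genes of the histone variant H3.3 and its chaperones, 5 were lower in old and 5 higher in melatonin-labelled libraries, with 0 called. Of the 5 cycling genes 4 were lower in old and 4 higher in melatonin-labelled libraries, 0 called.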

How the data were processed

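RNA from 12 mouse MSC libraries was extracted with Trizol and sequenced by a BGISEQ-500 protocol, per the labels' protocols. The authors deposited 2 tables that give each gene's estimated count, FPKM and TPM in every library, per the file headers. FPKM was not used. RSEM, Bowtie2, BWA and mm39 are named in the submitters' processing notes without roles; the strand setting is not given in the sources used here. Of the deposited estimated counts 67.7% lay within 0.005 of a whole number. Those of Psip1, Ash1l and Nsd1 were not whole in 12 of 12 libraries, so reads shared with other features may be split in them. Columns whose headers write Vel for vehicle were matched to samples by letter and replicate number.

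Estimated counts were rounded, filtered by filterByExpr (minimum count 10, minimum total 15), TMM-normalized within each table and tested with edgeR 4.0.16 in R 4.3.3, with Benjamini-Hochberg adjustment over all genes and a threshold of 0.05. CPM are counts scaled by TMM library sizes to a common total, within a table beside tests and over 12 libraries where libraries of both tables are set side by side. The lowest count of a member was 547, with a half-width of 8.47% for its exact Poisson 95% interval, which covers counting error only. Errors are SD for levels and SE for log2 changes, n = 3 libraries per group. Matched pairs were compared by a chi-square over genes with a summed count of at least 50. The fitting code was tested on simulated data. Alternatives were DESeq2 1.42.0, limma-voom (limma 3.58.1), no filter, a threshold of 0.1, a macrophage covariate (the mean of 20 genes), a fit over 12 libraries, the replicate number as a block, TPM levels and leaving out each library. Leaving out the libraries richest in macrophage transcripts, and the table as a term in the fit over 12 libraries, were chosen with the data in view. The members, the lists, the tests and the rule for named genes were chosen with earlier results of these data known. The rule names the 9 members, up to 4 genes per list by smallest p, and the 3 genes most like each member. Some genes the rule takes are given by counts only. Gene positions in the build of the files were not used here.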

Additional observations from a re-analysis of the deposited data

How the results depend on the processing

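Of 9 members, edgeR called 0 in each comparison, and limma-voom, no filter on low counts, a threshold of 0.1, the macrophage covariate and the removal of the 2 old vehicle libraries richest in macrophage transcripts also gave 0. DESeq2 called 1 member and 863 genes for age (6.37% of all genes, 1.51% as lower). It called 3 members and 895 genes for melatonin (6.64% of all genes, 1.39% as higher), and 1 gene in melatonin-labelled against young libraries. The fit over 12 libraries, which counts matched libraries as independent, called 1 member and 156 genes (1.1% of all) for age (Psip1, edgeR adjusted p = 0.0237). For melatonin it called 2 members and 296 genes (2.09% of all). These members were Psip1 and Setd2 (edgeR adjusted p = 0.0185 and 0.0377). As single libraries were left out, calls for melatonin ranged from 0 to 602 genes (4.33% of all) and from 0 to 1 members. The highest were without old vehicle replicate 1, and calls for age stayed at 0. Psip1 ran from -1.25 to -0.87 for age and from 1.13 to 1.42 for melatonin. Directions that turned were those of Nsd2 (-0.996 to 0.30 for age, -0.25 to 1.16 for melatonin), Kdm2b (-0.14 to 0.39 and -0.28 to 0.17) and Kdm4a (-0.52 to 0.0043 and -0.12 to 0.41). In melatonin-labelled against young libraries the ranges were -0.47 to 0.56 for Nsd2, -0.034 to 0.17 for Setd2, -0.036 to 0.068 for Kdm2a, -0.10 to 0.24 for Kdm2b, -0.35 to 0.37 for Kdm4a and -0.031 to 0.088 for Psip1. The age value of Kdm2b also turned to -0.0041 with the macrophage covariate and to -0.22 without the 2 libraries richest in macrophage transcripts, where its melatonin value turned to 0.12. The causes were not tested. With the table as a term, the melatonin-labelled against young values that turned were Nsd1 -0.053, Nsd3 -0.023, Setd2 -0.0095, Ash1l -0.010, Kdm2a -0.080 and Kdm4a -0.11. The log2 ratio of group means kept its sign on TPM for all 9 genes. For melatonin it was 0.38 for Kdm2a (0.26 on CPM), 0.47 for Nsd2 (0.26), 0.35 for Kdm4a (0.22) and -0.040 for Kdm2b (-0.11), and for age -0.49 for Nsd2 (-0.25) and 0.10 for Kdm2b (0.21). The replicate block called 0 genes and gave Psip1 1.27 ± 0.22 in the melatonin comparison (edgeR adjusted p = 0.516). For Nsd2 the block gave 0.37 ± 0.34 (edgeR adjusted p = 0.646), a smaller SE than the 0.65 without it. Deviations of same-numbered libraries correlated at -0.25, 0.10 and -0.020, so the numbers were not taken as pairs. With 3 libraries per group and no block, the interval of Nsd2 leaves changes of more than 2-fold in either direction unresolved.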
